A study of Mus musculus with 12 samples.

Results

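The genes described here are 10 markers of macrophages and megakaryocytes, taken by symbol from a table of 21783 genes measured in mouse embryonic hearts: Csf1r, Mrc1, Cd68, C1qa, C1qb, C1qc, Tyrobp, Fcer1g, Pf4 and Itga2b. Each symbol stood on 1 row of the table, so all 10 were found. The hearts came from embryos labelled female, at embryonic day 10.5, and ribosome profiling was set beside RNA-seq to ask how loss of the RNA helicase DDX3X acts on translation. In the CM-KO embryos Ddx3x was deleted by Tnnt2-Cre, a recombinase driven by a cardiac troponin promoter. The deletion is thus aimed at cardiomyocytes and not at the blood cells that the markers stand for. The WT embryos carried the floxed allele (Ddx3x fl/fl), and the labels do not say whether they carried Cre. Hearts were pooled by 20, with 3 pools for each genotype. From every pool came an RNA library and a footprint library (RPF), which holds the stretches of mRNA that ribosomes shield from RNase.

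Macrophages reach the embryonic mouse heart from yolk sac progenitors and later settle around vessels and valves. They depend on CSF1R, take up cell debris through scavenger and mannose receptors, make the C1q complex that starts the classical complement pathway, and pass signals from many surface receptors through the adaptors TYROBP and FCER1G, which carry an activation motif (ITAM) read by the kinase SYK. Megakaryocytes are the precursors of platelets and carry the integrin ITGA2B (CD41), which also marks early blood progenitors, and they store the chemokine PF4 in granules. In the mouse Pf4 is also transcribed in embryonic macrophages, so it stands for both cell types here.

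All 10 markers were detected, at low levels for most. Levels are given in CPM, read counts scaled to the size of the library with TMM factors that correct for its composition. The threshold for a call was an adjusted p of 0.05 (edgeR quasi-likelihood test, Benjamini-Hochberg over all genes tested). No marker was called in RNA, in footprints or in the footprint-to-RNA ratio, where 4.37%, 0.23% and 0.84% of all genes tested were. The fitted log2 fold change between CM-KO and WT was above 0 for all 8 testable markers in RNA (51.7% of all genes). The same held for all 8 in footprints (47.1% of all genes). There Pf4 came closest to the threshold (log2 fold change 1.05, edgeR adjusted p = 0.0732). In bulk hearts more cells of a type and more RNA per cell cannot be told apart.

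RNA libraries held 14.7 to 19.9 M counts and footprint libraries 7.31 to 14.3 M. Over all filled entries, the larger of the RNA and footprint counts of a pool was never below 11. A blank is therefore taken to stand for 10 counts or fewer, a ceiling inferred over all pools and not known for each. C1qa was blank in WT pools 1 and 2 and C1qc in WT pool 1, which left these genes out of the tests made here. Ddx3x itself had 281, 216 and 221 CPM of RNA in the CM-KO pools, against 294, 304 and 311 CPM in the WT pools (log2 fold change -0.34, adjusted p = 0.0883), in hearts where other cell types keep the gene. Although the pools are labelled female, CM-KO pools 1 and 2 held reads of Y-linked genes. Uty had 174, 108 and 11 RNA counts in CM-KO pools 1, 2 and 3 and was blank in all WT pools. Results are therefore also given with CM-KO pool 3 alone against the 3 WT pools, where the lone pool is assumed to vary like the others.

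**Figure D1:**
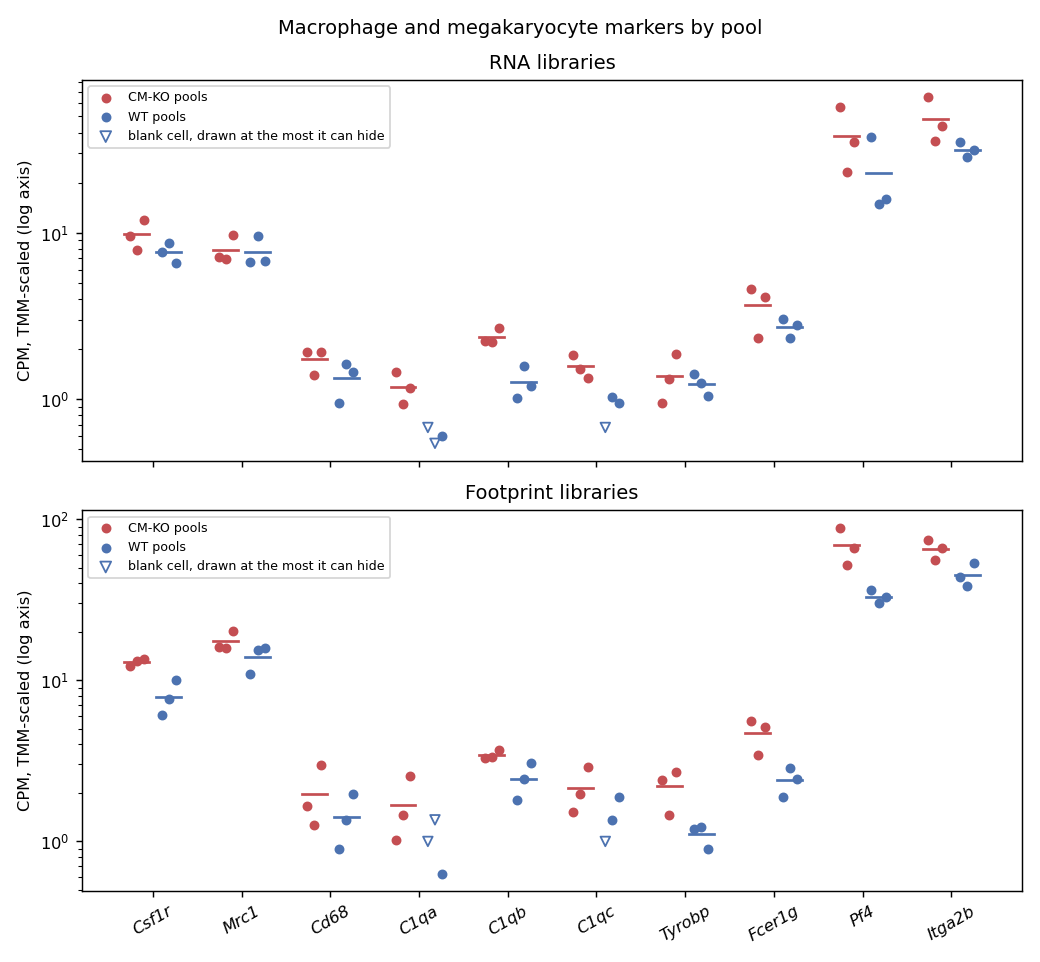
Level of each marker (CPM, TMM-scaled, logarithmic axis) in every pool, with RNA libraries above and footprint libraries below. Points are pools, bars are means where all 3 pools have values, and open triangles stand at the most that a blank entry is taken to hide. Pf4 and Itga2b lie above the other markers in both assays, and in footprints every CM-KO point of Pf4 lies above every WT point.

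The megakaryocyte markers had the highest levels. Pf4 (chromosome 5, 90918479 to 90922110, plus strand, GRCm39) encodes platelet factor 4, a chemokine of platelet granules, and its RNA was at 56.6, 23.2 and 35.2 CPM in CM-KO pools 1, 2 and 3, against 37.4, 14.9 and 16.0 CPM in WT pools 1, 2 and 3. Pool 1 was the highest of each genotype and the genotypes overlapped (log2 fold change 0.78, 95% interval -0.53 to 2.09, adjusted p = 0.609). Its footprints were at 88.6, 52.2 and 66.2 CPM in the CM-KO pools, against 36.3, 30.2 and 32.8 CPM in the WT pools. The footprint groups did not overlap, and the CM-KO mean was 2.09 times the WT mean. The log2 fold change of 1.05 in footprints had a 95% interval of 0.65 to 1.45, and its adjusted p of 0.0732 missed the threshold. With the replicate number as a block the footprint change was 1.04 and was called (edgeR, adjusted p = 0.00146). DESeq2 also called it (log2 fold change 1.05, adjusted p = 5.29e-06), and the authors' deposited table lists it at 1.06 on the log2 scale (adjusted p = 2.63e-06). With CM-KO pool 3 alone the footprint change of Pf4 was 1.00 (edgeR, adjusted p = 0.0249), and it was also called without CM-KO pool 1 (0.84, edgeR, adjusted p = 0.028) and without CM-KO pool 2 (1.21, edgeR, adjusted p = 0.0139). The other leave-outs did not call it: the log2 fold change was 1.08 without CM-KO pool 3 and 1.12, 1.00 and 1.04 without WT pools 1, 2 and 3 (edgeR, adjusted p = 0.306, 0.157, 0.417 and 0.265). Neither did upper quartile scaling (edgeR, adjusted p = 0.134) or all 12 libraries in 1 model (edgeR, adjusted p = 0.39). In RNA the log2 fold change of Pf4 was 0.38 without CM-KO pool 1 and 1.31 without WT pool 1, the pools with its highest levels.

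Itga2b (chromosome 11, 102341397 to 102360955, minus strand, GRCm39) encodes the alpha chain of the platelet fibrinogen receptor. Its RNA was at 65.2, 35.8 and 43.7 CPM in the CM-KO pools, against 35.0, 28.4 and 31.3 CPM in the WT pools. Every CM-KO pool lay above every WT pool, with CM-KO pool 2 and WT pool 1 close together, and the log2 fold change was 0.62 (95% interval 0.08 to 1.15, edgeR adjusted p = 0.234). CM-KO pool 1 carried much of this difference: without it the log2 fold change was 0.33. Footprints of Itga2b were at 74.4, 55.8 and 66.6 CPM in the CM-KO pools, against 43.5, 38.4 and 53.3 CPM in the WT pools. These groups did not overlap either, with a log2 fold change of 0.53 (95% interval 0.23 to 0.84, edgeR adjusted p = 0.21). The block by replicate number called it in footprints (log2 fold change 0.54, edgeR adjusted p = 0.0198). DESeq2 called it in both assays, with adjusted p-values of 0.0117 for RNA and 0.0418 for footprints. For the same gene the authors' deposited table lists adjusted p-values of 0.015 for RNA and 0.0484 for footprints. With CM-KO pool 3 alone the log2 fold changes of Itga2b were 0.47 in RNA and 0.56 in footprints, and neither was called (edgeR adjusted p = 0.22 and 0.329).

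The stretches of sequence before the transcript starts of the megakaryocyte markers Pf4 and Itga2b, and of an ITAM adaptor (Fcer1g) and a C1q chain (C1qb), are shown to let a reader see what lies there. Each is the longest run, within the 250 bases before the canonical start (GENCODE vM39), that no annotated exon overlaps. They are read 5′ to 3′ on the gene's strand from GRCm39: Pf4 at chr5:90920020-90920256 on the plus strand, Itga2b at chr11:102360710-102360768, Fcer1g at chr1:171062220-171062421 and C1qb at chr4:136613512-136613761 on the minus strand. The stretches of Pf4 and Itga2b lie within the spans of their genes because another annotated transcript of each starts farther upstream. Capitals mark matches on either strand to a motif of GATA factors, searched as AGATAA and also as TGATAA and also as AGATAG and also as TGATAG, or to one of ETS factors, searched as GAGGAA and also as AGGAAG. A run of GAGGAAG holds both ETS spellings and was counted under each. GATA1 and the ETS factor FLI1 are known regulators of megakaryocyte genes, and the ETS factor PU.1 (Spi1) of macrophage genes.
Pf4: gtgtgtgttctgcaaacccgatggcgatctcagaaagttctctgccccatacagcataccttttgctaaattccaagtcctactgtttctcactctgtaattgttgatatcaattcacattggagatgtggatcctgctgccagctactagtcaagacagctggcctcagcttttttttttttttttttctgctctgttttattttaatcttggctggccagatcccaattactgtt
Itga2b: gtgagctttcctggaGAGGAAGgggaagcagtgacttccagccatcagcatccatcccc
Fcer1g: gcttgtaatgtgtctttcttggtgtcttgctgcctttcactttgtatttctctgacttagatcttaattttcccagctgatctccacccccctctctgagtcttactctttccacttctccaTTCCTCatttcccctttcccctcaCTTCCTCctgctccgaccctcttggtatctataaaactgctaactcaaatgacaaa
C1qb: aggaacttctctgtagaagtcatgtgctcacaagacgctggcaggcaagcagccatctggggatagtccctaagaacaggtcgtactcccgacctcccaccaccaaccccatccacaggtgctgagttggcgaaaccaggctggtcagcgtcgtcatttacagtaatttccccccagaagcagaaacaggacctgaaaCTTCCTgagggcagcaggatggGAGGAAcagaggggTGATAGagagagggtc

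Over the full 250 bases, 8 of the 10 markers held an ETS match and 4 a GATA match, against 39.0% and 23.9% of the 21594 promoters of the table's genes that could be matched to the annotation. The markers with both were Mrc1, C1qb, C1qc and Tyrobp, and 9.84% of all promoters held both. Pf4 and C1qa held neither in this window. The stretch of Itga2b shown has 1 GAGGAAG run, counted as 2 matches, and that of C1qb has 2 ETS matches and 1 GATA match. A match describes the letters only, and no match says only that the letters are absent from the window.

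The receptors and surface proteins of macrophages were at lower levels. Csf1r (chromosome 18, 61229714 to 61266535, plus strand, GRCm39) encodes the receptor for the growth factors CSF1 and IL-34, and its RNA was at 9.59, 7.83 and 11.9 CPM in the CM-KO pools, against 7.70, 8.62 and 6.60 CPM in the WT pools. The groups overlapped in RNA (log2 fold change 0.36, 95% interval -0.03 to 0.74, edgeR adjusted p = 0.361). In footprints Csf1r was at 12.2, 13.1 and 13.6 CPM in the CM-KO pools, against 6.08, 7.61 and 9.97 CPM in the WT pools. Here every CM-KO pool lay above every WT pool, the CM-KO pools were close to each other, and the log2 fold change was 0.71 (95% interval 0.30 to 1.13, edgeR adjusted p = 0.212). Part of Csf1r overlaps Hmgxb3 on the opposite strand over 2189 bases, and no source at hand says whether the authors' counting used strand.

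Mrc1 (chromosome 2, 14234151 to 14336926, plus strand, GRCm39) encodes the macrophage mannose receptor CD206. Its RNA was at 7.12, 6.90 and 9.72 CPM in the CM-KO pools, against 6.68, 9.49 and 6.80 CPM in the WT pools, which is an overlap with almost equal means (log2 fold change 0.05, 95% interval -0.38 to 0.47, edgeR adjusted p = 0.968). Its footprints were at 16.1, 15.9 and 20.3 CPM in the CM-KO pools, against 10.9, 15.4 and 15.8 CPM in the WT pools. The lowest CM-KO pool and the highest WT pool were nearly equal, and the log2 fold change was 0.33 (95% interval -0.05 to 0.70, edgeR adjusted p = 0.642). Cd68 (chromosome 11, 69555037 to 69557067, minus strand, GRCm39), a glycoprotein of macrophage endosomes and lysosomes, had RNA at 1.91, 1.39 and 1.93 CPM in the CM-KO pools, against 0.945, 1.63 and 1.45 CPM in the WT pools. Its footprints were at 1.65, 1.27 and 2.98 CPM in the CM-KO pools, against 0.897, 1.36 and 1.98 CPM in the WT pools. The genotypes overlapped in both assays for Cd68, with log2 fold changes of 0.37 in RNA and 0.50 in footprints (edgeR adjusted p = 0.705 and 0.853). Single pools decided these values: the footprint change of Cd68 was 0.03 without CM-KO pool 3, and its RNA change was 0.18 without WT pool 1.

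C1qa, C1qb and C1qc lie side by side on chromosome 4 and encode the 3 chains of C1q. C1qb (136606009 to 136613511, minus strand, GRCm39) could be tested, and its RNA was at 2.22, 2.19 and 2.69 CPM in the CM-KO pools, against 1.01, 1.57 and 1.20 CPM in the WT pools. The groups did not overlap, the CM-KO mean was 1.88 times the WT mean, and the log2 fold change of 0.90 was the highest of the 8 tested markers in RNA (95% interval 0.25 to 1.55, edgeR adjusted p = 0.132). Footprints of C1qb were at 3.30, 3.32 and 3.69 CPM in the CM-KO pools, against 1.79, 2.45 and 3.05 CPM in the WT pools, again without overlap (log2 fold change 0.50, edgeR adjusted p = 0.71). C1qa (136623223 to 136626161, minus strand, GRCm39) had RNA at 1.46, 0.929 and 1.17 CPM in the CM-KO pools, against 0.60 CPM in WT pool 3, and its blanks in WT pools 1 and 2 allow at most 0.675 and 0.542 CPM. So every CM-KO pool was above every WT pool in RNA if a blank hides at most 10 counts. The same held for the RNA of C1qc (136616466 to 136620376, minus strand, GRCm39), at 1.84, 1.53 and 1.35 CPM in the CM-KO pools, against 1.03 and 0.95 CPM in WT pools 2 and 3 and at most 0.675 CPM in WT pool 1. In footprints C1qa was at 1.01, 1.46 and 2.56 CPM in the CM-KO pools, against 0.629 CPM in WT pool 3 and at most 0.997 and 1.36 CPM in WT pools 1 and 2, so an overlap cannot be told. C1qc footprints, at 1.52, 1.95 and 2.91 CPM in the CM-KO pools against 1.36 and 1.89 CPM in WT pools 2 and 3, did overlap. Read as 10 counts, the most they are taken to hide, the blanks give log2 fold changes in RNA of 0.94 for C1qa and 0.77 for C1qc, neither of them called (edgeR adjusted p = 0.118 and 0.408). The authors' deposited table lists 1.24 and 0.81 for the same genes in RNA (DESeq2 adjusted p = 0.388 and 0.619). In footprints it lists 1.36 and 0.60 (DESeq2 adjusted p = 0.963 and 0.9997).

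Both ITAM adaptors had larger fitted changes in footprints than in RNA, as had Pf4, Csf1r, Mrc1 and Cd68. Neither adaptor was called in the footprint-to-RNA ratio, where the 95% interval was -0.32 to 2.02 for Tyrobp and -0.36 to 1.48 for Fcer1g. Tyrobp (chromosome 7, 30113170 to 30117010, plus strand, GRCm39), also known as DAP12, pairs with receptors such as TREM2. Its RNA was at 0.953, 1.33 and 1.87 CPM in the CM-KO pools, against 1.42, 1.25 and 1.05 CPM in the WT pools, which overlapped (log2 fold change 0.17, edgeR adjusted p = 0.92). Its footprints were at 2.41, 1.46 and 2.70 CPM in the CM-KO pools, against 1.20, 1.22 and 0.898 CPM in the WT pools, without overlap (log2 fold change 1.00, 95% interval 0.12 to 1.88, edgeR adjusted p = 0.482). These WT levels rest on 12, 9 and 10 reads, and a count of 9 has an exact Poisson 95% interval of 4.12 to 17.1, which covers counting error only.

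Fcer1g (chromosome 1, 171057141 to 171062219, minus strand, GRCm39), the gamma chain of Fc receptors and in platelets the partner of the collagen receptor GP6, had RNA at 4.57, 2.32 and 4.10 CPM in the CM-KO pools, against 3.04, 2.33 and 2.80 CPM in the WT pools. CM-KO pool 2 was level with the lowest WT pool (log2 fold change 0.43, edgeR adjusted p = 0.566). Footprints of Fcer1g were at 5.58, 3.41 and 5.11 CPM in the CM-KO pools, against 1.89, 2.85 and 2.42 CPM in the WT pools. These groups did not overlap, and the CM-KO mean was 1.97 times the WT mean (log2 fold change 0.98, 95% interval 0.32 to 1.64, edgeR adjusted p = 0.315).

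Set side by side, the markers were counted against all genes tested. In RNA 0 of the 8 testable markers were called, where 4.37% of 17147 genes were, and 2 had an unadjusted p under 0.05 with a higher level in CM-KO (10.8% of all genes). In RNA 2 of 8, C1qb and Itga2b, had every CM-KO pool above every WT pool (13.3% of all genes), and 8 of 8 had a log2 fold change above 0 (51.7% of all genes). In footprints 0 of 8 were called, where 0.23% of 15249 genes were. There 5 of 8 had an unadjusted p under 0.05 with a higher level in CM-KO (4.65% of all genes), 7 of 8 had groups that did not overlap with CM-KO above (7.74% of all genes), and 8 of 8 had a log2 fold change above 0 (47.1% of all genes). The median log2 fold change of the 8 markers was 0.40 in RNA, against 0.01 over all genes, and 0.62 in footprints, against -0.01 over all genes. The markers share pools, and several share cells, so these counts are not independent of each other. DESeq2, run on the same genes, gave no adjusted p for C1qb, Cd68 and Tyrobp in either assay, nor for Fcer1g in RNA. It called 1 of the 8 in RNA (Itga2b), where it called 5.6% of all genes entered. In footprints it called 2 of the 8 (Itga2b and Pf4), where it called 1.21%. The block by replicate number called the same 2 in footprints and 1.33% of all genes. With CM-KO pool 3 alone 0 of 8 were called in RNA (0.735% of all genes) and 1 of 8 in footprints, Pf4 (0.336% of all genes). The fitted values there ran from 0.34 (Mrc1) to 1.08 (C1qb) in RNA and from 0.54 (Mrc1) to 1.29 (Tyrobp) in footprints. CM-KO pool 3 set the direction of some markers in RNA: without it the values of Mrc1 and Tyrobp were -0.13 and -0.11. The footprint value of Cd68 without this pool was 0.03, still above 0. The RNA value of Mrc1 was also below 0 without WT pool 1 (-0.04) and without WT pool 3 (-0.02).

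**Figure D2:**
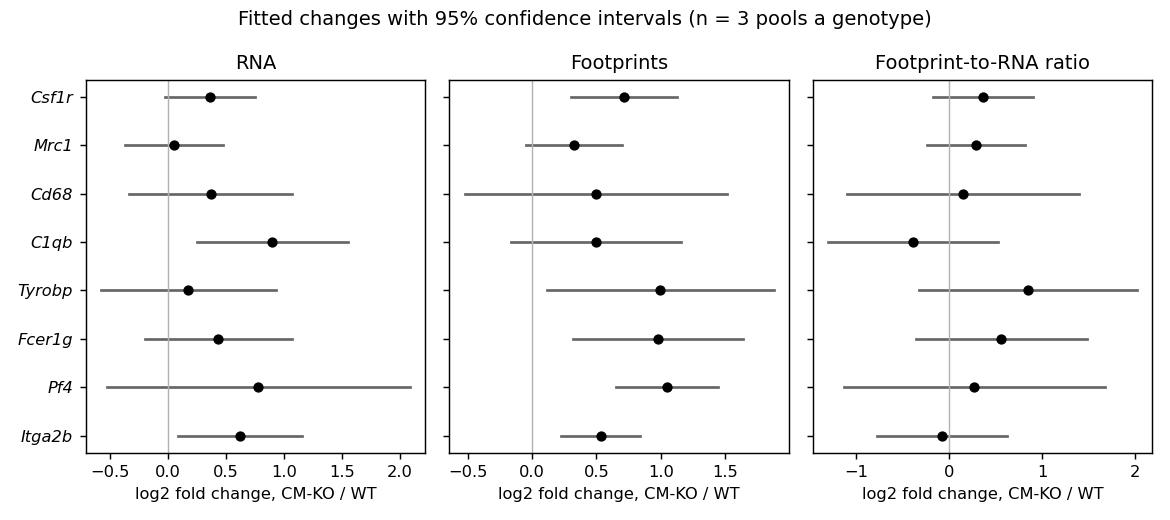
Fitted log2 fold change between CM-KO and WT (horizontal axis) of the 8 testable markers, with 95% confidence intervals, in RNA, in footprints and in the footprint-to-RNA ratio (3 pools a genotype). All 8 points lie above 0 in RNA and in footprints, where the interval of Pf4 runs from 0.65 to 1.45, and every interval in the ratio panel includes 0.

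The footprint-to-RNA ratio (occupancy) asks whether footprints changed beyond RNA, and it is given per pool as a log2 ratio after scaling the 12 libraries together, so its level is relative to the average gene. Within a pool, RNA and footprint deviations from the group mean correlated at -0.04, 0.34 and 0.41 in CM-KO pools 1, 2 and 3. In WT pools 1, 2 and 3 they correlated at 0.63, 0.08 and 0.50 (8970 genes). The ratios of single pools rest on this uneven pairing. Occupancy of Tyrobp was 1.60, 0.50 and 0.97 in CM-KO pools 1, 2 and 3, against 0.19, 0.39 and 0.07 in the WT pools, the largest difference among the markers (log2 fold change 0.85, 95% interval -0.32 to 2.02, edgeR adjusted p = 0.999). Mrc1 was the other marker whose groups did not overlap with CM-KO above, with log2 ratios of 1.51, 1.58 and 1.53 in the CM-KO pools, against 1.14, 1.13 and 1.51 in the WT pools. C1qb ran the other way, at 0.89, 0.96 and 0.91 in the CM-KO pools, against 1.21, 1.04 and 1.59 in the WT pools (log2 fold change -0.39, 95% interval -1.30 to 0.53, edgeR adjusted p = 0.999). For Pf4 the ratios were 0.99, 1.55 and 1.39 in the CM-KO pools, against 0.40, 1.45 and 1.33 in the WT pools; pool 1 was the lowest of each genotype, and the log2 fold change of 0.27 had an interval of -1.13 to 1.67. Of the 8 markers 0 were called in occupancy, where 0.84% of 15231 genes were. An unadjusted p under 0.05 with a higher ratio in CM-KO was reached by 0 of 8 (1.27% of all genes), 2 of 8 had every CM-KO pool above every WT pool (3.83% of all genes), and 6 of 8 had a log2 fold change above 0 (47.6% of all genes). The median half-width of the 95% interval was 0.919 for the markers and 0.404 over all genes on the log2 scale. These intervals are not adjusted for the number of genes tested. A call at the adjusted threshold therefore needed an estimate larger than the half-width of that gene.

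In WT hearts every tested marker lay above the average gene in this ratio, with log2 ratios that ran from 0.19 for Fcer1g to 1.28 for C1qb and a median of 0.66, against a median of -0.07 over all 15231 genes. C1qb and Mrc1 stood at percentiles 91.2 and 90.9 of all genes, Pf4 at 87.5 and Itga2b at 84.0, while Tyrobp and Fcer1g stood at 62.6 and 61.5. This is a description of the WT pools, and the ratio moves with transcript and coding length. Per length, Pf4 had the highest RNA level, at 25.7 ± 11.3 CPM per kilobase of transcript in CM-KO pools and 15.2 ± 8.51 in WT pools (SD, n = 3 each). Itga2b followed with 7.83 ± 2.47 CPM per kilobase in CM-KO and 5.12 ± 0.544 in WT. Next came Fcer1g with 3.82 ± 1.24 in CM-KO and 2.84 ± 0.375 in WT, and Tyrobp with 2.28 ± 0.762 in CM-KO and 2.04 ± 0.303 in WT. In the WT pools Mrc1 (1.40 ± 0.289), Csf1r (1.26 ± 0.167) and Cd68 (1.12 ± 0.295 CPM per kilobase) lay within 1 SD of each other from one to the next, below Tyrobp and above C1qb (0.498 ± 0.113) by more than 1 SD. C1qa and C1qc had 1.09 ± 0.245 and 0.849 ± 0.136 CPM per kilobase in the CM-KO pools, next to C1qb at 0.936 ± 0.111. Footprints per kilobase of coding sequence were highest for Pf4 too, at 219 ± 58.4 CPM in CM-KO pools and 105 ± 9.78 CPM in WT pools, followed by Itga2b at 21.2 ± 3.02 and 14.5 ± 2.43 CPM.

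Most of the other macrophage genes tested had a fitted value above 0, 19 of 21 in RNA and 16 of 19 in footprints, and few were called. For this list and those that follow, the shares over all genes in RNA were 51.7% above 0 and 4.37% called. In footprints they were 47.1% above 0 and 0.23% called. Of 30 further macrophage genes 21 could be tested in RNA, of which 1 rose and 0 fell, with a median log2 fold change of 0.23, and 19 in footprints, of which 1 rose, with a median of 0.38. The gene that rose in both was Coro1a, an actin regulator of white blood cells. Its RNA averaged 10.99 ± 2.00 CPM in CM-KO pools and 6.74 ± 0.955 CPM in WT pools (log2 fold change 0.71, edgeR adjusted p = 0.0391). Its footprints averaged 23.0 ± 3.81 CPM in CM-KO and 11.4 ± 1.00 CPM in WT (log2 fold change 1.01, edgeR adjusted p = 0.0315, SD, n = 3 each). The most abundant of the list were Laptm5, a lysosomal protein of blood cells, at 15.4 ± 2.13 CPM of RNA in CM-KO and 13.5 ± 0.912 CPM in WT, and the fractalkine receptor Cx3cr1, at 13.2 ± 1.02 and 11.3 ± 2.67 CPM. Neither was called (edgeR adjusted p = 0.545 and 0.597). Ptprc, the pan-leukocyte marker CD45, was present in every library, at 4.05 to 6.09 CPM of RNA in CM-KO pools and 2.95 to 4.66 CPM in WT pools.

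Of 25 further megakaryocyte and platelet genes 24 could be tested in RNA, of which 2 rose and 0 fell, with a median log2 fold change of 0.49. Of these 24 values 23 were above 0. In footprints 0 of 23 were called by edgeR, the median was 0.57 and all 23 values were above 0. Thbs1, the adhesive protein thrombospondin 1 of platelet granules and of many other cells, averaged 351 ± 70.9 CPM of RNA in CM-KO pools and 233 ± 14.3 CPM in WT pools (log2 fold change 0.59, edgeR adjusted p = 0.0294). Nfe2, a transcription factor of platelet release that red cell precursors also use, averaged 20.4 ± 1.12 CPM in CM-KO and 13.8 ± 1.44 CPM in WT (log2 fold change 0.56, edgeR adjusted p = 0.0114; SD, n = 3 each). Vwf, the most abundant after Thbs1 and also made by endothelium, had 160 ± 9.44 CPM in CM-KO and 151 ± 12.5 CPM in WT and was not called (edgeR adjusted p = 0.772). Itgb3, the beta chain that pairs with ITGA2B, was chosen after its values were seen: its log2 fold change was 0.50 in RNA and 0.57 in footprints (edgeR adjusted p = 0.235 and 0.0864). Of the list, Gata1, Gfi1b and Nfe2 are also genes of red cell precursors.

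Of 24 genes of ITAM and CSF1 receptor signalling 16 could be tested, 0 were called in RNA, footprints or occupancy, and the median log2 fold change was 0.20 in RNA and 0.21 in footprints. Cbl, a ubiquitin ligase that acts on CSF1R, had 183 ± 11.9 CPM of RNA in CM-KO and 160 ± 7.13 CPM in WT (edgeR adjusted p = 0.201), and the adaptor Grb2 had 65.1 ± 2.15 and 67.0 ± 2.75 CPM (edgeR adjusted p = 0.884). The ligands of CSF1R, chosen after their values were seen, had log2 fold changes in RNA of 0.01 for Csf1 and 0.05 for Il34. Of 20 other complement genes 14 could be tested in RNA, 0 were called, and the median was -0.04; Calr had 585 ± 23.2 CPM in CM-KO and 693 ± 87.4 CPM in WT, and Cd93 had 234 ± 10.8 and 217 ± 32.6 CPM. The highest log2 fold change of the complement list was that of C3ar1, a complement receptor of macrophages, also chosen after its values were seen (log2 fold change 0.66 in RNA and 1.08 in footprints, edgeR adjusted p = 0.163 and 0.162). Of 20 endocytosis and lysosome genes 1 rose in RNA, the protease Ctsl, with 142 ± 6.90 CPM in CM-KO and 113 ± 6.95 CPM in WT (log2 fold change 0.33, edgeR adjusted p = 0.0278), and the median was 0.00. Lamp1 had 347 ± 24.8 CPM in CM-KO and 265 ± 36.8 CPM in WT (edgeR adjusted p = 0.0623), and Ctsb had 228 ± 11.8 and 214 ± 29.4 CPM.

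**Figure D3:**
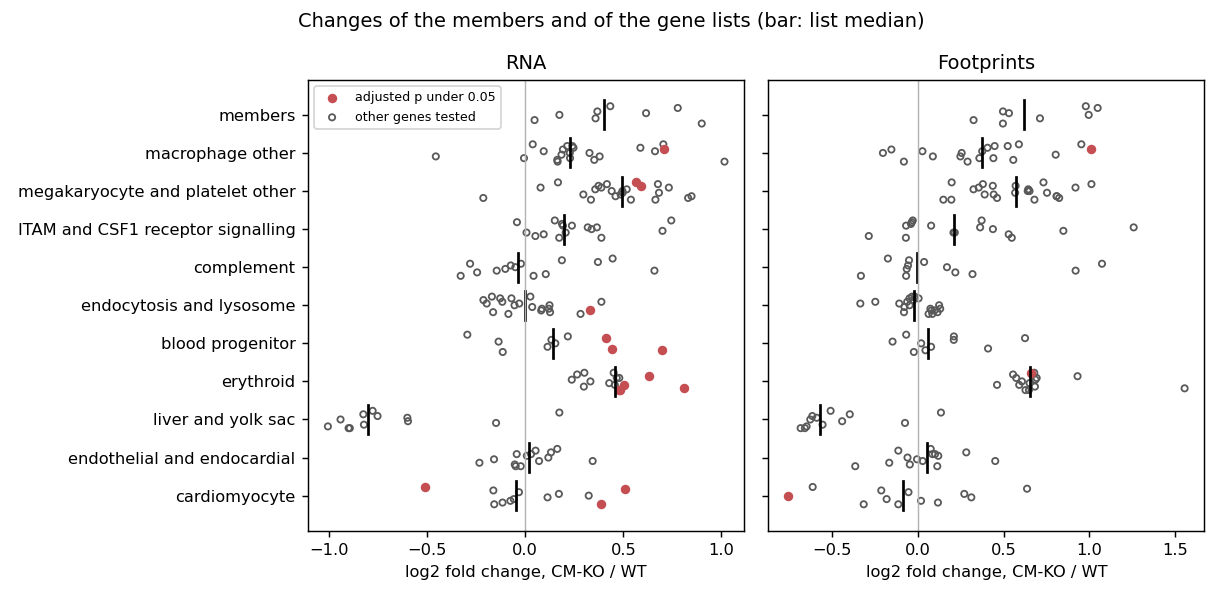
Log2 fold change between CM-KO and WT (horizontal axis) of the markers (members) and of the genes of each list, in RNA and in footprints; each point is a gene, filled in red where its adjusted p is under 0.05, and the vertical bar is the median of the list. The medians of the megakaryocyte and platelet list are 0.49 and 0.57, those of the erythroid list 0.46 and 0.65, and those of the endothelial and endocardial list 0.02 and 0.05.

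Some genes of red blood cells and of blood progenitors rose in the same hearts. Of 16 erythroid genes, the genes of red blood cells, 15 could be tested and 5 rose in RNA: Slc4a1 (444.8 ± 38.7 CPM in CM-KO and 313 ± 56.0 CPM in WT), Alas2, Klf1, Hbb-bs and Hbb-bt, with log2 fold changes of 0.48 to 0.81. All 15 fitted values of the list were above 0 in each assay, with medians of 0.46 in RNA and 0.65 in footprints. The summed RNA of the erythroid list ran from 12879 to 16114 CPM in CM-KO pools and from 8876 to 14122 CPM in WT pools, and its summed footprints from 69709 to 89311 CPM in CM-KO and from 43130 to 57435 CPM in WT. The embryonic globins Hbb-y and Hba-x had 5865 ± 923 and 4399 ± 385 CPM of RNA in CM-KO, against 4359 ± 1035 and 3662 ± 790 CPM in WT. Of 10 blood progenitor genes 3 rose in RNA, the transcription factor genes Runx1, Tal1 and Lmo2, with log2 fold changes of 0.70, 0.41 and 0.44 (edgeR adjusted p = 0.041, 0.0298 and 0.0311), and 0 in footprints. Of 15 genes of other white blood cells only Mpo and Prtn3 of granulocyte precursors could be tested, with log2 fold changes in RNA of 0.58 and 0.51 (edgeR adjusted p = 0.0529 and 0.562). The part of the amount of blood in these values was not tested. In RNA the median deviation of the erythroid list was 0.24, 0.04 and 0.36 in the CM-KO pools. It was -0.33, -0.45 and -0.02 in the WT pools, while the summed RNA of the genotypes overlapped. The erythroid level thus ran largely with the genotype, so a fit with both cannot cleanly tell them apart. The covariate used was the mean log2 CPM of the erythroid genes in the RNA library of each pool. With it the log2 fold change of Pf4 footprints was 0.76 and that of Itga2b footprints 0.09. That fit called 0 of all 15249 genes in footprints (433 at an unadjusted p under 0.05) and 2 genes in RNA.

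Genes of solid tissues were set beside these. Of 14 endothelial and endocardial genes 0 were called in RNA or footprints, with medians of 0.02 and 0.05, and Npr3 of the endocardium had 301 ± 42.2 CPM of RNA in CM-KO and 312 ± 29.9 CPM in WT, while Tek had 240.5 ± 28.2 and 235 ± 27.8 CPM. Of 14 liver and yolk sac genes 12 could be tested and 0 were called. Their median log2 fold change was -0.80 in RNA and -0.57 in footprints, and 11 of the 12 values were below 0 in each assay, which is opposite in sign to the medians of the markers. Their summed RNA was 166, 69.4 and 382 CPM in CM-KO pools 1, 2 and 3, against 125, 433 and 495 CPM in WT pools 1, 2 and 3. The pools of each genotype differed widely in these genes, with CM-KO pool 2 the lowest. Afp, the main secreted protein of yolk sac, had 90.2, 20.2 and 220 CPM in the CM-KO pools, against 49.7, 259 and 306 CPM in the WT pools, and Trf had 26.8 ± 14.7 CPM in CM-KO and 40.5 ± 18.3 CPM in WT. With the Afp level as a covariate the log2 fold changes of Pf4 and Csf1r footprints were 1.09 and 0.82, in a fit that called 5 genes in all in footprints. Of 12 cardiomyocyte genes 2 rose in RNA, Nppa and Ttn, and 1 fell, Myl2. Ryr2, the calcium release channel, fell in footprints and in occupancy (log2 fold change -1.07, edgeR adjusted p = 0.00116).

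**Figure D4:**
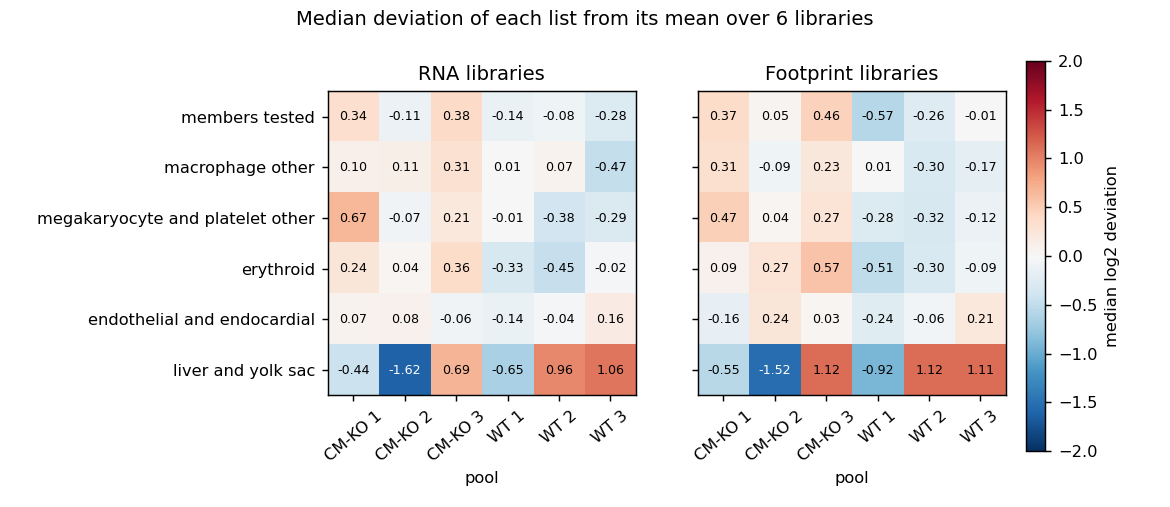
Heatmap of the median log2 deviation of the genes of 6 lists (rows) from their own mean over the 6 libraries of an assay, by pool (columns), with CM-KO pools on the left of each panel; red is above the mean and blue below. In footprints the 8 tested markers stand at 0.37, 0.05 and 0.46 in the CM-KO pools, against -0.57, -0.26 and -0.01 in the WT pools, and the erythroid list at 0.09, 0.27 and 0.57, against -0.51, -0.30 and -0.09.

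Across pools, the median log2 deviation of the 8 tested markers in RNA was high in CM-KO pools 1 and 3 and near the mean in CM-KO pool 2. It was 0.34, -0.11 and 0.38 in CM-KO pools 1, 2 and 3, against -0.14, -0.08 and -0.28 in the WT pools. Single markers differed from this median: RNA of Tyrobp was lowest of all 6 libraries in CM-KO pool 1 (0.953 CPM). The other megakaryocyte and platelet genes peaked in CM-KO pool 1 (0.67 in RNA), and the other macrophage genes in CM-KO pool 3 (0.31 in RNA). Among 16896 other genes with a mean of at least 1 CPM in RNA, the pattern over the 6 RNA libraries most like the mean of the 8 tested markers was that of Dock8 (Pearson r = 0.989), followed by Arhgap45 (0.983), Cnksr2 (0.975), Was (0.975) and Ccz1 (0.972). Taken singly, the markers did not all follow their own mean. The Pearson r of a marker with the mean of the other tested markers was 0.16 for Tyrobp, 0.30 for Mrc1 and at most 0.89 (Csf1r). All these coefficients describe the same 6 libraries, and 70 of the other genes reached 0.9 or more. Of the lists, Runx1, Plcg2, Vav1, Plek and C3ar1 were among those 70.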

How the data were processed

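RNA and ribosome footprints were sequenced from 3 pools of hearts per genotype. The authors' reads were processed against mm39 by a service provider, with its own counting method, per the series' design text. No source used here gives the aligner, annotation release or strand setting. The deposited counts are raw reads per gene and library and were the only values tested. The authors' deposited RPM values, scaled to the reads in genes, and their ratio of footprint to RNA coverage were not used for any result. The log2 changes and p-values that the authors deposited come from DESeq2, as the design text says for RNA and the file headers say for footprints. They are quoted only where named.

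Genes filled in every pool (17165 of 21783) were tested by the quasi-likelihood test of edgeR 4.0.16 (R 4.3.3) after TMM scaling and filterByExpr (minimum count 10, minimum total 15), per assay, and as an interaction of genotype and assay over the 12 libraries for occupancy. The occupancy fit did not pair the RNA and footprint libraries of a pool. An alternative occupancy fit did, with the pool as its block in place of the replicate number. Log2 ratios used a prior count of 1. Gene IDs were matched to GENCODE vM39 (21594 found, 189 not). No source names molecular identifiers, so intervals on single counts cover counting error only. Each replicate is its own pool of hearts.

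The markers, lists and rules were chosen with earlier results of these data known. All 10 markers were named, and of other lists every called gene, with 1 exception not reported here, and, where fewer than 3 were called, the 2 with the highest mean RNA CPM; the 5 genes most like the markers were taken by Pearson r. Listed genes with no row in the table were not analysed here. Same-numbered CM-KO and WT footprint libraries deviated together from their group means (correlations 0.42, 0.14 and 0.18 over 9255 genes), so the fit with the replicate number as a block stands beside footprint results it changes. Alternatives were DESeq2 1.42.0, other scalings, no filter, blanks read as 0, all 12 libraries in 1 model, the block and leaving out each pool; blanks read as 10, Afp or erythroid covariates and leaving out CM-KO pools 1 and 2 were added after seeing the data. On simulated data the scripts were checked to recover known changes.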

Additional observations from a re-analysis of the deposited data

How the results depend on the processing

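No marker was called in the occupancy comparison under any alternative. DESeq2 gave no adjusted p for C1qb, Cd68 and Tyrobp in any comparison, nor for Fcer1g in RNA and occupancy. Markers called in RNA numbered 1 by DESeq2 (Itga2b) and 1 with the replicate block (Pf4, log2 fold change 0.79, edgeR adjusted p = 0.0228, with Itga2b at 0.051). Markers called in footprints numbered 2 by DESeq2 and 2 with the replicate block (Itga2b and Pf4), and 1 with no filter on low counts, without CM-KO pools 1 and 2 together and, with pools left out in turn, 0 to 1 (Pf4). RNA libraries of the same number did not deviate together (correlations -0.22, 0.20 and -0.49), so the number only names them there, and not every library correlated best with its own number.

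Genes called in RNA, 750 as reported, numbered 292 with the Afp covariate, 250 with all 12 libraries in 1 model, 324 with blanks read as 10, 2 with the erythroid covariate, 367 with the replicate block, 126 without CM-KO pools 1 and 2, and 207 to 783 with pools left out in turn. In footprints the 35 became 5 (Afp), 184 (DESeq2), 80 (1 model), 0 (erythroid), 203 (replicate block), 60 (upper quartile scaling), 54 (without CM-KO pools 1 and 2) and 1 to 94. In occupancy the 128 became 39 (Afp), 41 (DESeq2 size factors), 27 (blanks read as 10), 0 (erythroid), 29 (no filter), 226 (pool block), 248 (upper quartile), 5 (without CM-KO pools 1 and 2) and 9 to 113. The pool block pairs the RNA and footprint libraries of each pool, which the fit behind the 128 does not. Beside the counts of 0 with the erythroid covariate, 433 genes in footprints and 286 in occupancy had an unadjusted p under 0.05. Upper quartile scaling moved the share of RNA calls that were higher in CM-KO to 63.6%, against 81.6%.

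Fold changes that changed sign, with no call, were Cd68 in footprints (-0.50) and occupancy (-0.78) and Fcer1g in RNA (-0.17) with the erythroid covariate; Itga2b occupancy with blanks read as 10 (0.0025) and without CM-KO pools 1 and 2 (0.13); and, with pools left out in turn, Cd68 occupancy (-0.21 to 0.41), Itga2b occupancy (-0.15 to 0.19), Mrc1 RNA (-0.13 to 0.22), Pf4 occupancy (-0.14 to 0.55) and Tyrobp RNA (-0.11 to 0.38). The causes were not tested. The counts of the rarer markers, 7 to 52 reads a library where not blank, for Cd68, C1q genes and Tyrobp, limit what could be detected.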
